A study of Homo sapiens with 2 samples.

Results

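The cyclin-dependent kinase inhibitors are 7 human genes, CDKN1A, CDKN1B, CDKN1C, CDKN2A, CDKN2B, CDKN2C and CDKN2D, and they were chosen by name out of 19974 protein-coding genes on chromosomes 1 to 22 and X. For each gene, every listed JUNB peak was taken whose summit lay within 100 kb of the gene's span in the RefSeq annotation of GRCh38. JUNB is a DNA-binding partner in AP-1 dimers. Its sites were mapped by CUT&RUN, in which an antibody brings a nuclease to its target on chromatin and the DNA fragments released are sequenced. The cells were IMR-90, a line of normal human fibroblasts. One library came from cells given no treatment and 1 from cells given etoposide, a poison of topoisomerase II that breaks DNA and is widely used to drive fibroblasts into senescence. Dose and length of treatment are not given in the sources used here, and no IgG or input library was analysed here. With 1 library per condition there was no spread between replicates, so no difference below carries a test, and each describes these 2 libraries.

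The 7 proteins hold the cell cycle in check by binding cyclin-dependent kinases. The Cip/Kip proteins p21 (CDKN1A), p27 (CDKN1B) and p57 (CDKN1C) bind complexes of a cyclin with its kinase, whereas the INK4 proteins p16 (CDKN2A), p15 (CDKN2B), p18 (CDKN2C) and p19 (CDKN2D) bind CDK4 and CDK6 and keep cyclin D away from them. Where the kinases are held inactive, the retinoblastoma protein stays poorly phosphorylated and E2F target genes stay low. In fibroblasts, p21 carries the early arrest after DNA damage, and p16 is the inhibitor best known for maintaining senescence. AP-1 is a family of dimers of JUN and FOS proteins that opens and holds many enhancers of fibroblasts.

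The untreated list held 32550 peaks on these chromosomes and the etoposide list 25739, a ratio of 0.791. The authors' files give no read depth. The number of fragments stacked at each summit was derived from the authors' fold and p-value, and its median was 15 for untreated and 13 for etoposide peaks. The lowest local background of the etoposide list was 0.782 times that of the untreated list, which would make the etoposide library the shallower one if these minima reflect genome-wide coverage. A peak is called shared here when it overlaps any peak of the opposite list by 1 bp or more. A missing counterpart means only that none was listed, since weaker signal stays under the caller's threshold.

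JUNB summits were listed within 100 kb of 6 of the 7 inhibitor genes in the untreated library and of the same 6 in the etoposide library, and CDKN2D had none in either. For comparison, an untreated summit lay in that window for 83.2% of the 19974 coding genes and an etoposide summit for 76.9%, with both for 74.2% and neither for 14.1%. Another 9.04% had one only in untreated cells and 2.74% only in etoposide-treated cells, and no inhibitor gene was of either kind. The 6 genes each had at least 1 shared peak, as did 66.5% of all coding genes. These counts are near the background, so presence of a JUNB peak within 100 kb does not set the inhibitor genes apart. Their windows held 23 untreated and 24 etoposide summits, with peaks near both CDKN2A and CDKN2B counted 1 time. These form 32 separate places: 14 in both lists, 9 only in the untreated list and 9 only in the etoposide list. Over all peaks, 15940 of 32550 untreated and 9063 of 25739 etoposide peaks had no counterpart.

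**Figure D1:**
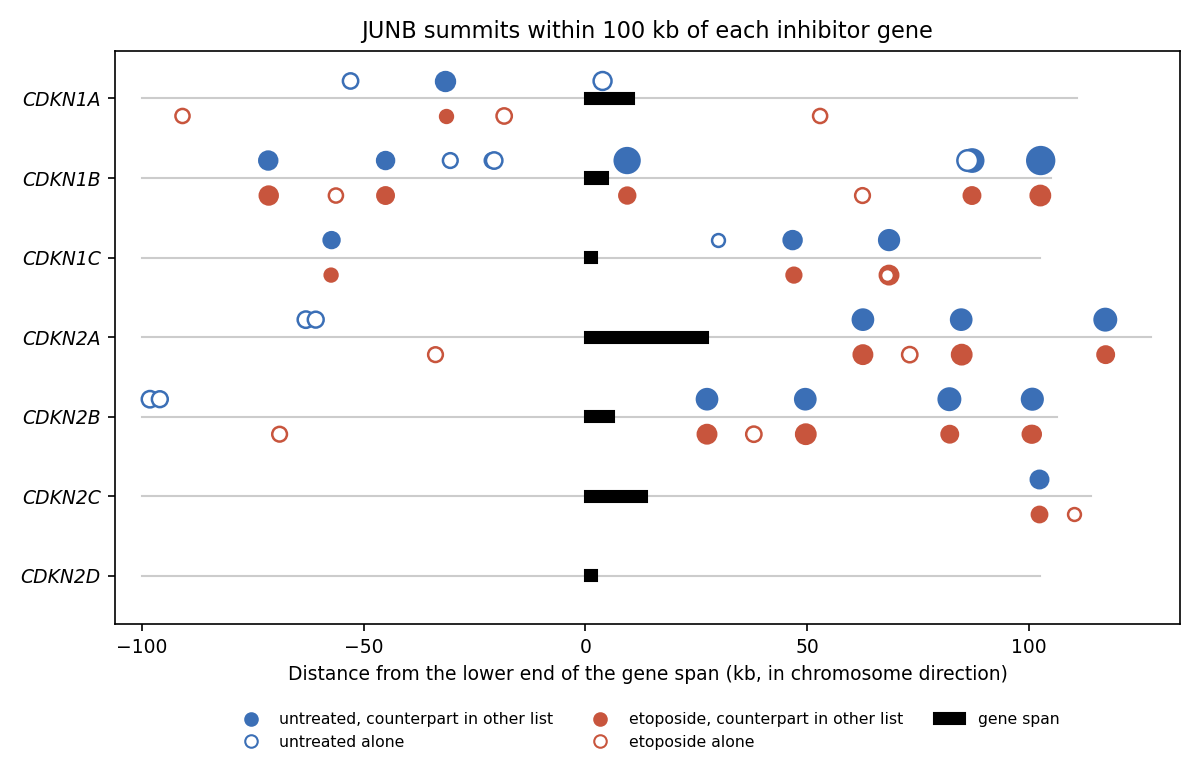
Summits within 100 kb of each gene span, by distance in kb from the lower end of the span in chromosome direction. Blue points above each line are untreated and red points below it etoposide, filled where the other list has an overlapping peak, with larger points for more fragments at the summit. Only CDKN1A has a summit inside its span, and the line of CDKN2D is empty.

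Within 10 kb there were 2 inhibitor genes with an untreated summit (CDKN1A and CDKN1B) and 1 with an etoposide summit (CDKN1B), against 49.6% and 38.9% of all coding genes. CDKN1B was the 1 gene with a summit this close in both libraries (34.3% of coding genes), CDKN1A the 1 gene with it in the untreated library alone (15.3%), and the other 5 had none in either (45.8%). The inhibitor genes are short, with spans of 2.52 kb to 27.6 kb, and length bears on such counts. A summit lay inside the span of 33.4% of all coding genes for untreated and 27.7% for etoposide peaks, and inside 13.9% of the 10658 coding genes no longer than CDKN2A for untreated peaks. Of those shorter genes, 35.1% had an untreated and 22.8% an etoposide summit within 10 kb, 60.6% had none in either library, and within 100 kb the shares were 78.6% and 70.7%. Their median distance to a summit was 24.9 kb untreated and 44.5 kb etoposide, against 27.4 kb and 33.8 kb for the inhibitor genes. Beside genes of such length the inhibitor genes were thus about as far from a summit.

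**Figure D2:**
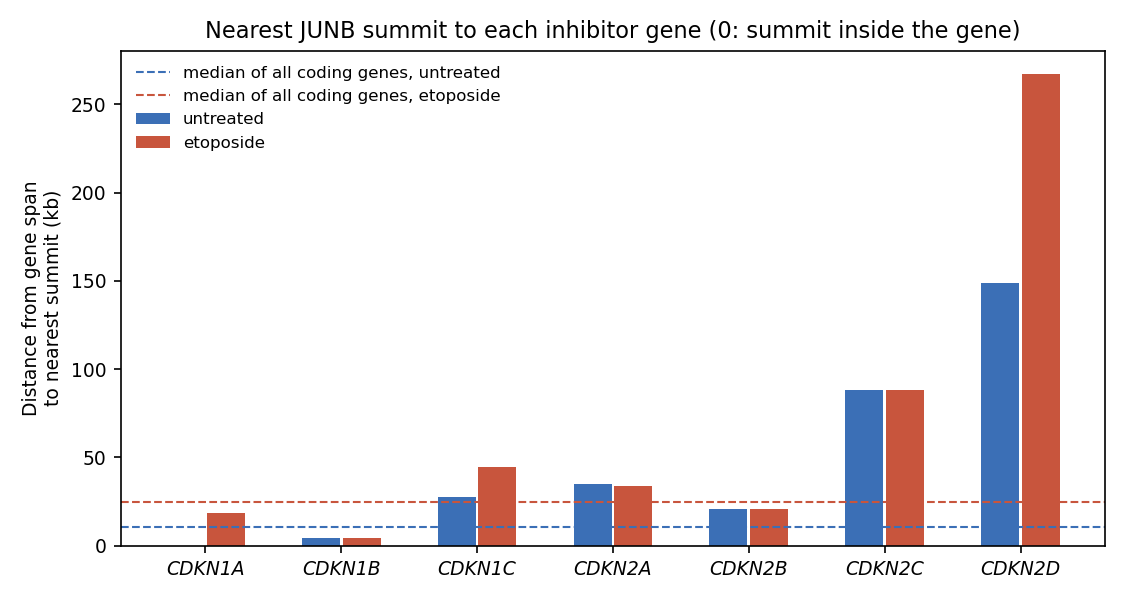
Distance in kb from each gene span to the nearest summit, with untreated bars in blue and etoposide bars in red. Dashed lines are the medians over all coding genes, 10.4 kb untreated and 24.9 kb etoposide, and the bars of CDKN2C and CDKN2D stand far above both.

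The gene starts for which RefSeq gave a sequence carried no listed peak. RefSeq promoter windows, from 250 bases before a start site to 50 after it, were found for 6 of the 7 genes, 9 windows in all. None of the 9 was touched by a peak of either library, where 11.0% of coding promoters were touched by an untreated and 3.13% by an etoposide peak. The AP-1 site TGANTCA, which reads the same on both strands, and the related CRE site TGACGTCA each matched 0 of the 9 windows. They were in 7.71% and 1.85% of all 35116 promoter windows, and a window without a match says only that these letters are not in it. The GC box, GGGCGG on either strand, is a site bound by SP1 and is common in promoters of coding genes. It was in 7 of the 9 windows, against 45.0% of all windows and 56.3% of those of coding genes. These 9 windows come from 6 genes, CDKN2C giving 3 and CDKN2A 2. No trait particular to the inhibitor genes is read from this count. The 250 bases before the starts of the 4 inhibitor genes closest to a peak or best known in senescence are printed here to show the GC boxes, in capitals, in sequence without an AP-1 site (RefSeq, GRCh38.p14).
CDKN1A, chr6:36678464-36678713, plus strand: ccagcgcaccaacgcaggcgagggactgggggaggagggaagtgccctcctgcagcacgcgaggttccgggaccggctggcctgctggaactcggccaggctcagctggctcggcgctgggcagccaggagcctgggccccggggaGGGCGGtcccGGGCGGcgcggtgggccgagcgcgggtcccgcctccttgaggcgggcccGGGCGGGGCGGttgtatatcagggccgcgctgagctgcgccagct
CDKN1B, chr12:12717118-12717367, plus strand: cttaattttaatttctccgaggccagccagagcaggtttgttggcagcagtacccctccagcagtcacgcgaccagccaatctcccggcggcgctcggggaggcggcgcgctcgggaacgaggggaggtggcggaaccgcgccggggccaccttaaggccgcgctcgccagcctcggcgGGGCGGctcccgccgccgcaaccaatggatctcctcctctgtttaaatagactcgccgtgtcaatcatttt
CDKN2A, inner start site, chr9:21974858-21975107, minus strand: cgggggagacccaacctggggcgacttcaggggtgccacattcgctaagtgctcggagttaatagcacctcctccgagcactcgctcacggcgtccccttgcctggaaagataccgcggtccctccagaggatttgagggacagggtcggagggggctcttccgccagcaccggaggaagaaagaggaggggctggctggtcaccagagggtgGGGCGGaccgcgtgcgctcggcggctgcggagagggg
CDKN2B, chr9:22009306-22009555, minus strand: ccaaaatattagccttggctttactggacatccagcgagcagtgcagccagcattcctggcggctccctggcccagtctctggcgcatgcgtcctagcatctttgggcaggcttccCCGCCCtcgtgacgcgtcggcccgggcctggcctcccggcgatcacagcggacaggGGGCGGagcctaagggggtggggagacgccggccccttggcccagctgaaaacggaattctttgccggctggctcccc

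The stretch before CDKN1A held 4 GC boxes, that of CDKN1B 1, that of the inner CDKN2A start 1 and that of CDKN2B 2. GC content of the full windows was 74.3% at CDKN1A, 62.3% at CDKN1B, 69.0% at the inner CDKN2A start and 67.3% at CDKN2B, and the median over coding promoters was 62.3%. Not all starts were alike: the 3 CDKN2C windows had 46.3%, 71.3% and 49.3%, and the windows without a GC box were the first of these and that of the outer CDKN2A start, with 63.3%. The sequence under the peaks themselves was not used here.

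CDKN1A, which encodes p21, was the only inhibitor gene with a JUNB summit inside its span. The span is chr6:36676463-36687332. The untreated peak at chr6:36680140-36680526 had its summit 1.62 kb downstream of the RefSeq start site at 36678714, with 16 fragments (95% Poisson interval 9.15 to 26.0, counting error only) on a local background of 1.54. By -log10 q, which was 8.88, it stood at the middle of its list, in the top 47.5%. The etoposide list had no peak there, and its nearest summit to CDKN1A lay 18.3 kb before the span, at chr6:36658006-36658315, with 11 fragments and no untreated counterpart. So the places nearest to the gene differed between the lists, and both peaks were near the middle of their lists, the etoposide one in the top 46.4%. The lowest number of fragments at any listed summit was 5 in either list, so signal below the threshold at either place cannot be read from these files.

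In all, CDKN1A had 3 untreated summits within 100 kb (exact Poisson interval 0.619 to 8.77) and 4 etoposide summits (1.09 to 10.2). One place was shared, 31.6 kb before the span in sequence between genes. There the untreated peak at chr6:36644510-36645016 had 18 fragments and stood in the top 31.6% of its list, while the etoposide peak at chr6:36644847-36645035 had 7 fragments and was close to the threshold, in the top 98.5%. The remaining untreated peak lay 53.0 kb before CDKN1A with 11 fragments. The other etoposide peaks lay 90.8 kb before the gene, nearest to the splicing factor gene SRSF3, and 42.0 kb after it inside RAB44, each with 9 fragments. No summit of either list lay in DINOL, a long non-coding RNA gene at chr6:36677609-36678559, inside the CDKN1A span.

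CDKN1B, which encodes p27, had the most JUNB summits of the inhibitor genes in the untreated library and, level with CDKN2B, in the etoposide library. There were 9 untreated (4.12 to 17.1) and 7 etoposide summits (2.81 to 14.4) within 100 kb of its span, chr12:12717368-12722369. As many or more were found at 8.41% of coding genes for untreated and 8.40% for etoposide peaks, where the medians were 3 and 2. At 5 places the lists shared a peak. None lay in CDKN1B itself, and most lay in its neighbours.

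The nearest place, 4.41 kb past the end of CDKN1B, was shared and lay inside APOLD1, an early response gene of endothelial cells, 0.857 kb downstream of its first start site. It was also 9.41 kb downstream of the CDKN1B start. The untreated peak, chr12:12726616-12727179, was 564 bp wide with 33 fragments (22.7 to 46.3) and stood in the top 7.23% of its list. Its etoposide counterpart, chr12:12726704-12726892, was 189 bp wide with 12 fragments (6.20 to 21) and stood in the top 57.2%. Without scaling between the libraries these 2 counting intervals do not overlap, which was the case at no other pair near an inhibitor gene. The gap between them, 21 to 22.7, is narrow beside the ratio of 0.782 between the lowest local backgrounds of the lists. Whether a gap would remain at equal depth was not tested.

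The strongest untreated peak near any inhibitor gene lay at the far edge of the same window, 97.6 kb past CDKN1B and inside the RNA helicase gene DDX47. This place had 39 fragments in the untreated library (chr12:12819563-12820157, top 3.58%) and 19 in the etoposide library (chr12:12819595-12820064, top 16.6%). By -log10 q the strongest etoposide peak near an inhibitor gene was instead in NAP1L4 near CDKN1C, with 13.5 against 13.3 in DDX47. Another shared place 82.2 kb past the gene, upstream of DDX47, had 26 and 13 fragments. On the other side, 2 shared places had near-equal pileups. The one 45.1 kb before CDKN1B, inside the receptor gene GPR19, had 14 untreated and 13 etoposide fragments. The one 71.5 kb before it, 0.749 kb from CREBL2, had 16 in each. The untreated list alone had 3 further peaks in GPR19 at 20.6 to 30.5 kb with 10 to 13 fragments, and 1 peak at 81.2 kb with 22 fragments. The etoposide list alone had a peak 56.3 kb before the gene in GPR19 with 9 fragments and a peak 57.5 kb past it in APOLD1 with 10.

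CDKN1C encodes p57 and is an imprinted gene expressed mainly from the maternal copy. It had 4 untreated and 4 etoposide summits within 100 kb of its span, chr11:2883218-2885775, and 3 of the 4 in each list were shared. The nearest untreated summit lay 27.4 kb away inside SLC67A1, with 7 fragments, no counterpart and a place in the top 93.8% of its list. The nearest etoposide summit lay 44.5 kb away.

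All 3 shared places of CDKN1C were at or in other genes. The strongest, inside the nucleosome assembly gene NAP1L4 and 65.9 kb from CDKN1C, had 20 untreated fragments (chr11:2951485-2951866, top 14.5%) and 17 etoposide fragments (chr11:2951484-2951850, top 16.2%), with summits 12 bp apart. A place 0.509 kb from PHLDA2, also an imprinted gene, had 16 and 10 fragments. The place inside the potassium channel gene KCNQ1, 57.2 kb away on the lower-coordinate side, had 12 and 7. A second etoposide peak in NAP1L4 with 7 fragments had no counterpart.

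CDKN2A and CDKN2B are neighbours on chromosome 9, at chr9:21967752-21995324 and chr9:22002903-22009313, and share most of their peaks. CDKN2A encodes p16 and, in another reading frame, ARF. No summit of either list lay inside either gene or between them. The stretch without a summit around both genes was 123 kb long for untreated and 96.4 kb for etoposide peaks, and 46.0% and 61.9% of coding genes lie in a longer one. CDKN2A had 5 summits within 100 kb in each library, and CDKN2B had 6 untreated and 7 etoposide summits. As many or more etoposide summits were found at 18.7% of coding genes for CDKN2A and at 8.40% for CDKN2B, and the untreated shares were 33.6% and 24.4%.

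All shared places of the pair lay on 1 side, inside CDKN2B-AS1, the long antisense RNA gene also called ANRIL that starts beside CDKN2A and runs past CDKN2B. The nearest was 21 kb upstream of CDKN2B and 35.0 kb upstream of the outer CDKN2A start. It had 21 fragments in the untreated library (chr9:22030195-22030409, top 12.7%) and 17 in the etoposide library (chr9:22030188-22030407, top 19.2%), and the summits were 3 bp apart, the closest of any pair. The place 43.2 kb from CDKN2B had 21 and 19 fragments. The place 75.7 kb away had 24 and 13. At 94.4 kb, 1 broad untreated peak of 780 bp with 22 fragments covered 2 narrow etoposide peaks with 13 each. An etoposide peak 31.6 kb from CDKN2B, with 11 fragments, had no counterpart.

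On the opposite side, no place was shared. The methylthioadenosine phosphorylase gene MTAP held 2 untreated peaks 60.8 kb and 63.0 kb from CDKN2A, with 12 and 13 fragments, and 1 etoposide peak 33.8 kb away, with 10 fragments at chr9:21933837-21934282. This etoposide peak was the listed summit nearest to CDKN2A in either library. It lay 40.9 kb from the inner CDKN2A start, from which the nearest untreated summit was 55.5 kb away.

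CDKN2C, which encodes p18, lay far from JUNB peaks. Its only shared place was 88.4 kb from the span, chr1:50960745-50974634, in sequence between genes, with 15 untreated fragments (chr1:51063012-51063503) and 11 etoposide fragments (chr1:51062891-51063172). An etoposide peak 96.2 kb away had 7 fragments and no counterpart. On the lower side, where the neighbour FAF1 begins, the next summit of either list was 357 kb away and inside FAF1. The stretch without a summit was thus 459 kb long in both libraries, and for untreated peaks 18.4% of coding genes, for etoposide peaks 26.1%, lie in a longer one.

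CDKN2D, which encodes p19, had no summit within 100 kb of its span, chr19:10566460-10568979, in either library, though 8 other coding genes lie in that window. A count of 0 has an upper Poisson limit of 3.69 summits. Of the coding genes of chromosome 19, 81.0% had an untreated and 66.4% an etoposide summit in the window. The nearest untreated summits lay 149 kb away on the higher-coordinate side and 163 kb on the lower, with 7 and 11 fragments. The nearest etoposide summits lay 267 kb away on the higher side and 322 kb on the lower. For untreated peaks 11.6% of coding genes, and for etoposide peaks 7.90%, were farther from a summit. KEAP1, the repressor of the antioxidant factor NRF2, lies in the same stretch.

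**Figure D3:**
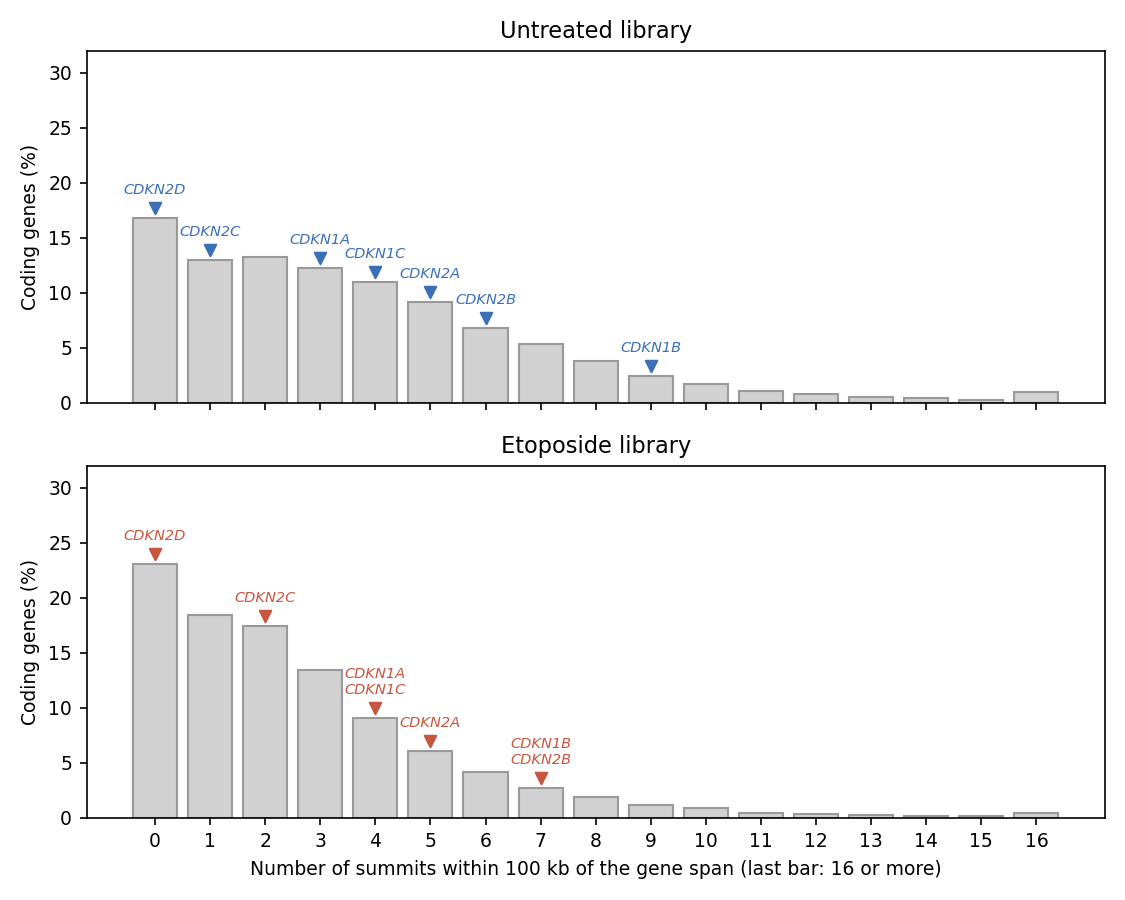
Share of all 19974 coding genes in percent by the number of summits within 100 kb, untreated above and etoposide below, with triangles at the counts of the 7 inhibitor genes. The genes run from CDKN2D at 0 to CDKN1B at 9 untreated and 7 etoposide summits, along the range of other genes.

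Across the 7 genes the median number of summits was 4 in each library, and over all coding genes it was 3 untreated and 2 etoposide. Over the coding genes no longer than CDKN2A it was 2 untreated and 1.5 etoposide. CDKN1A, CDKN2B and CDKN2C had more etoposide than untreated summits, which 13.5% of coding genes did. CDKN1B had fewer, as did 55.7% of coding genes, and CDKN1C and CDKN2A had equal numbers above 0, as did 16.8%. Each of these differences is of 1 or 2 peaks, and CDKN2A and CDKN2B share peaks. The direction depended on weak peaks: at a -log10 q of at least 5 there were 0 genes with more etoposide summits and 4 with fewer, where 12.8% and 54.6% of coding genes had more and fewer. With both lists brought to 25739 peaks there were 4 with more and 0 with fewer, and the shares over coding genes moved as well, to 25.1% and 38.2%.

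Within 100 kb of an inhibitor gene there were 47 peaks, 23 untreated and 24 etoposide. Of these, 1 lay inside an inhibitor gene, 21 inside another coding gene, 10 inside CDKN2B-AS1 and 15 between genes. Coding genes thus held 52.2% of the untreated and 41.7% of the etoposide peaks. For all peaks within 100 kb of a coding gene these values were 62.9% and 63.4%, and the difference was not tested. An inhibitor gene was the nearest coding gene, by distance to the span, of 14 of the 47 peaks. For this count and the next, by start site, no share over all peaks is given here. By start site, only starts in the RefSeq promoter set were used, which has none for CDKN1C, GPR19, C1orf185 and PHLDA2. Among these starts an inhibitor start was the nearest for 22 of the 47. They were 10 at CDKN2B, 5 at CDKN1B, 3 each at CDKN2A and CDKN2C and 1 at CDKN1A. The 5 counted at CDKN1B lay inside GPR19, and the 3 at CDKN2C lay nearer to C1orf185. The count of 22 therefore depends on which starts that set holds. The shared share was 60.9% of the untreated peaks (14 of 23, Wilson 95% interval 40.8% to 77.8%) and 62.5% of the etoposide peaks (15 of 24, 42.7% to 78.8%). Among all peaks within 100 kb of a coding gene the shares were 49.9% and 66.0%. The intervals treat peaks as independent, which neighbouring peaks of 1 library are not. A difference from these shares was therefore not tested.

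**Figure D4:**
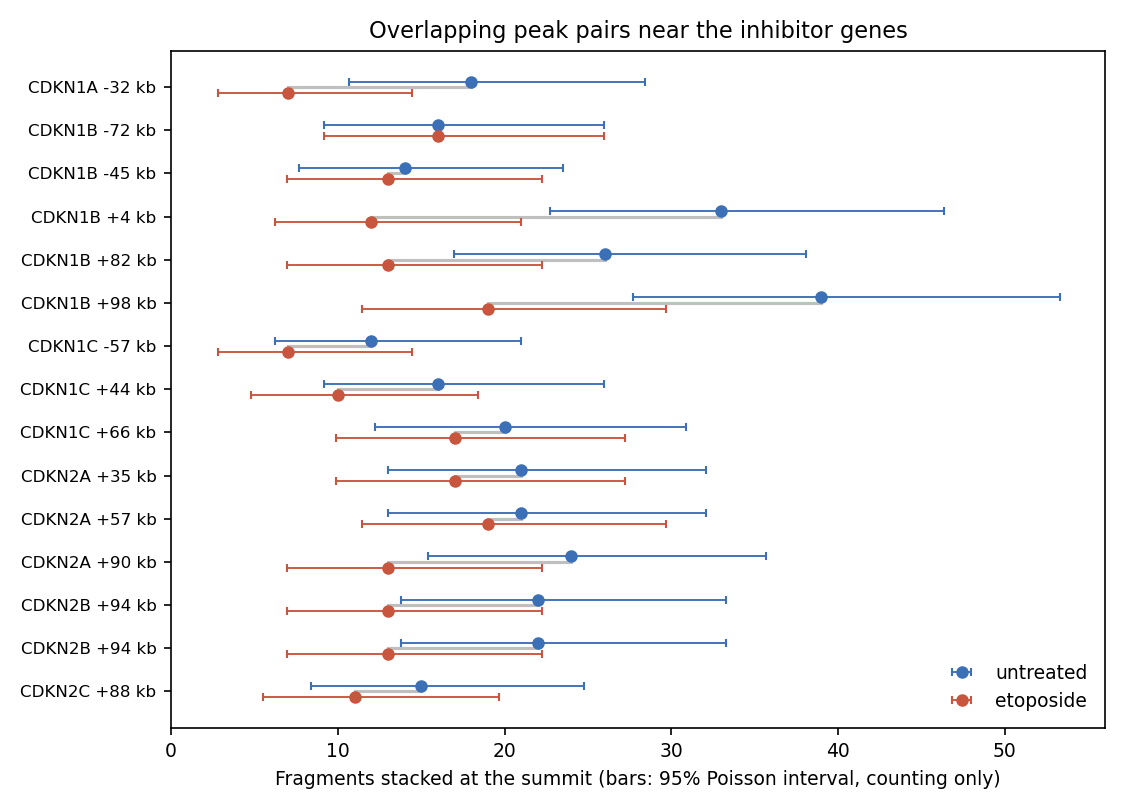
Fragments at the summit for the 15 overlapping pairs of peaks, untreated in blue and etoposide in red, with exact 95% Poisson intervals that cover counting error only and no correction for depth. Labels give the gene and the distance from its span in kb, and the etoposide point is to the left in 14 pairs and level in 1.

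In the 15 overlapping pairs the etoposide summit had fewer fragments in 14 and the same number in 1. Medians were 21 untreated and 13 etoposide fragments, and the median ratio was 0.591, with a range of 0.364 (APOLD1, near CDKN1B) to 1 (beside CREBL2). Over all 17119 overlapping pairs of the lists the etoposide summit had fewer fragments in 74.0%, with a median ratio of 0.769. The part of library depth in these counts was not tested, since the files do not give it. Untreated peaks without a counterpart had a median of 12 fragments (7 to 22), and those with one 20.5 (12 to 39). The etoposide medians were 9 (7 to 11) without and 13 (7 to 19) with a counterpart. Over all peaks of the lists the medians without a counterpart were 12 untreated and 10 etoposide and those with one 19 and 14, so the peaks near the inhibitor genes were much like the rest in this respect.

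The genes that act with the inhibitors were described in the same way, as 42 genes for kinases, cyclins, pocket proteins, E2F factors, ubiquitin ligase parts and a cofactor (SKP2, CKS1B, CUL1, SKP1 and FBXW7), and upstream regulators. Of these, 40 had an untreated and 38 an etoposide summit within 100 kb, 38 of them in both, and the medians were 4 and 3 summits. These are 95.2% and 90.5%, where coding genes as a whole had 83.2% and 76.9%. Both libraries had a summit at 74.2% of coding genes, and the medians over coding genes were 3 and 2. Within 10 kb the numbers were 27 and 20 of 42, or 64.3% and 47.6%, where coding genes as a whole had 49.6% and 38.9% and the inhibitors 2 and 1 of 7. Of the kinases bound by the INK4 proteins, CDK6 had 14 untreated and 8 etoposide summits within 100 kb, and CDK4 had 3 and 1. CCND3, for cyclin D3, had 12 and 6. CCND2 and CCNE1, for cyclins D2 and E1, had none in either library, as did 14.1% of coding genes. E2F1 and FOXO1 had untreated summits alone, 2 and 1, which was the case at 9.04% of coding genes. RB1, for the retinoblastoma protein, had 5 and 4, and SKP2, for the subunit that marks p27 for degradation, had 3 and 1. These genes differ in length and several are much longer than the inhibitors, so their windows are wider.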

How the data were processed

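Values come from 2 deposited peak lists in narrowPeak layout, 1 per library, with Bowtie2, MACS2, hg38 and mm10 named in the submitters' processing notes without versions or order. Contig names are those of the human build. The deposited fold is the ratio of summit signal to local background, the deposited -log10 p and -log10 q and the deposited score (10 times -log10 q) are the authors' values at the summit, and each served only to rank, filter or describe peaks of its own list. Peaks on other contigs and Y (941 untreated, 851 etoposide) were not placed. Gene spans, start sites and promoters are RefSeq, GRCh38.p14.

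Fragments at the summit are the whole number k for which (k + 1)/(b + 1) equals the fold and the Poisson tail above k at background b equals p. This held for 100.0% of peaks within 0.001 on -log10 p, and on simulated data it returned k in 100.0% of 1913 untreated and 1912 etoposide peaks. Python 3.11.15 and SciPy 1.17.1 were used. All 7 genes are named, and in full the nearest, the strongest, the shared and those peaks within 10 kb. The genes and lists were chosen with earlier results of these data known. Alternatives were windows of 10, 50 and 200 kb, shorter lists and stricter overlap. The GC box was added after the data had been seen. No sequence under peaks was used here, and 1 gene of the list of genes that act with the inhibitors is not reported here.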

Additional observations from a re-analysis of the deposited data

How the results depend on the processing

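Beside the main window of 100 kb, the untreated and etoposide windows of 10 kb held 2 and 1 summits at 2 and 1 genes. There was 1 shared peak in each list, with 1 untreated peak and 0 etoposide peaks alone. At this width 0 genes had more and 1 had fewer etoposide summits. At 50 kb there were 11 and 10 summits, 6 and 6 shared, 5 and 4 alone, and 3 genes with more and 2 with fewer etoposide summits. At 200 kb there were 52 and 39 summits, 26 and 27 shared, 26 untreated alone, and 1 gene with more and 5 with fewer etoposide summits. With peaks below a -log10 q of 5 left out, the etoposide peaks alone came to 5, with 0 genes with more and 4 with fewer etoposide summits. The 10000 strongest peaks of each list left 7 and 6 summits, 4 and 4 shared, 3 and 2 alone, and 1 gene with more and 1 with fewer etoposide summits. With lists of equal length 4 genes had more and 0 had fewer. Requiring overlap of 50% of both peaks left 7 and 7 shared and 16 and 17 alone. Over all coding genes, the shares with more and with fewer etoposide summits were 9.61% and 30.2% at 10 kb, 12.9% and 45.6% at 50 kb, 13.4% and 66.6% at 200 kb, and 19.1% and 25.5% with the 10000 strongest peaks. By construction, more or fewer peaks enter each count. Of 70 such values, 32 stayed within 1.5 times the main count, among them all those for summits within 500 bp and for peaks counted for each gene. The comparison of genes with more or fewer etoposide summits and the set of shorter genes were chosen after seeing the data. No paired analysis was possible because each condition has 1 library.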

Other observations

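The stretch of chromosome 9 beyond the 100 kb window was looked at after its values had been seen. Within 200 kb of CDKN2A there were 19 untreated and 15 etoposide summits, and 1.97% and 2.02% of coding genes had as many or more. Between 100 and 200 kb from CDKN2A alone there were 14 untreated summits, 7 on each side, and 10 etoposide summits, 4 on the MTAP side and 6 on the CDKN2B side. CDKN2A thus had no summit within 10 kb and a count within 200 kb that few coding genes reached in either library.

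Part of this lay in CDKN2B-AS1, chr9:21994791-22128142, which held 7 untreated summits (exact Poisson interval 2.81 to 14.4, 6 of them shared) and 8 etoposide summits (3.45 to 15.8, 7 shared). Among the 807 long non-coding RNA genes of similar length, from 1.5 times shorter to 1.5 times longer, 3.97% had as many or more untreated summits and 0.743% as many or more etoposide summits, and the medians were 1 and 0. The untreated peaks in it had 15 to 24 fragments and the etoposide peaks 11 to 21. Its strongest etoposide peak, chr9:22111800-22112032, had 21 fragments and stood in the top 14.2% of its list.

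At CDKN1B the wider window held 16 untreated and 11 etoposide summits, reached by 4.67% and 7.5% of coding genes. CDKN2B, whose window takes in many of the same peaks as that of CDKN2A, had 15 and 13, reached by 6.14% and 3.88%. Counts at the other Cip/Kip genes were ordinary. CDKN1A had 6 and 6, reached by 52.6% and 32.9% of coding genes, and CDKN1C had 7 and 5, reached by 44.6% and 43.1%. CDKN2C had no summit between 100 and 200 kb in either library, and CDKN2D had 2 untreated and 0 etoposide summits there.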
